A study of Drosophila melanogaster with 25 samples.

Results

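Among the genes of Drosophila melanogaster that carry only a CG number as a symbol, 36 had a higher signal in leg, wing and antennal discs with ectopic eyeless (ey) than in the matching wild-type discs, without being enriched in the wild-type eye disc. They were chosen on the measured values themselves. The mean of the arrays with ectopic ey had to lie at least 0.5 above the wild-type mean on the log2 scale in each of the 3 discs. The wild-type eye mean had to lie less than 0.7 above the highest of the wild-type leg, wing and antennal means. The 36 came from 5209 CG-numbered genes with a probe set of their own, among 11981 genes in all. Where a gene had more than 1 probe set, the one with the highest mean signal stood for it.

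RNA was measured on Affymetrix Drosophila Genome 2.0 arrays, on which a probe set of short oligonucleotides reports the level of a transcript. There were 25 arrays, 1 per sample, from imaginal discs of larvae in the third instar, in 8 groups. The 3 leg disc groups were wild type, UAS-ey, and UAS-ey in an ato mutant, with 3 arrays each. Wing discs were wild type or UAS-ey and antennal discs wild type or labelled Uey, again with 3 arrays each. Wild-type eye discs had 4 arrays. The label Uey was read as UAS-ey in antennal discs. No source used here gives the GAL4 driver that switched on UAS-ey, the ato allele, the age within the instar or the share of disc cells that expressed the transgene. The labels call the replicates biological without saying how many discs or animals went into each, so a p-value measures the spread between these arrays. In such bulk samples a gene that is on in more cells and a gene with more RNA per cell cannot be told apart. The discs with ectopic ey and the wild-type discs may also differ in driver, transgene insertion or strain background. Such differences cannot be told apart from ectopic ey in this design.

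Imaginal discs are epithelial sacs in the larva that become the legs, wings, antennae and eyes of the adult fly. ey encodes a transcription factor of the Pax family that starts eye development, and supplying it in other discs makes them form eye tissue. Its action runs through the other retinal determination genes, among them sine oculis (so) and eyes absent (eya). Atonal (ato) is a proneural transcription factor needed for the first photoreceptor of each unit of the compound eye. A CG number is the name that genome annotation gives to a predicted gene before it has another one. All 36 genes were listed as protein coding in the RefSeq gene table. For most of them the table gave no name that points to a function. It listed the synonym HAT for CG1894, FBXO9 for CG5961, METTL15 for CG14683, CAMKIIb for CG17698 and SPH66 for CG4998. The members are therefore ordered here by what was measured and not by function.

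The lowest log2 signal was 6.91 on each array, and 25.3% to 33.9% of the probe sets of an array sat at it, so it was taken as a floor. The eye marker gl, a transcription factor of photoreceptor development, was at the floor on all wild-type leg, wing and antennal arrays and on all ato-mutant arrays, and read 8.09 to 10.27 on the 9 arrays with ectopic ey and no ato mutation in the label. The groups are called by their labels throughout. The probe set for ey itself was lower in UAS-ey leg discs (10.59 ± 0.37, SD, n = 3) than in wild-type leg discs (12.04 ± 0.34), with an adjusted p of 0.000943 in limma. In wing (adjusted p = 0.753) and antennal discs (adjusted p = 0.705) it was not called by limma, and which part of the transcript it covers is not given in the sources used here. Wild-type eye discs read 10.85 on this probe set, below wild-type leg discs and wild-type wing discs (12.12). UAS-ey wing discs read 12.43 and ato-mutant leg discs 12.53. The ey signal thus followed neither the labels nor the eye disc, and it does not show how much ey RNA a group had. The signal for ato read 7.85 to 10.16 on the ato-mutant arrays, 8.97 to 9.12 on the wild-type and 10.47 to 10.60 on the UAS-ey leg arrays. The ato-mutant arrays thus lay below all UAS-ey leg arrays but on both sides of the wild-type ones, and since the allele is not given, this signal does not check the label. Among the wild-type discs, the leg gene Scr read 10.70 in leg discs and was at the floor in wing and eye discs, the wing gene vg was highest in wing discs (12.40), and the antennal gene Dfd read 11.24 in antennal discs and was at the floor in leg and wing discs. The summed linear signal of 4 antennal genes was 8112 to 8289 in wild-type antennal and 6416 to 7466 in wild-type eye discs. As a list these genes thus set antennal and eye discs only a little apart. Markers of other cell types moved with some groups. Summed linear signals of 3 tracheal, 21 testis and 9 nervous system genes exceeded wild type without overlap in all 3 discs with ectopic ey. In wing discs they were 10708 to 10901 against 6621 to 8875 for tracheal and 6003 to 6399 against 4209 to 4600 for testis genes. In leg, wing and antennal discs limma called 2, 2 and 1 of the tracheal genes higher, and 3, 1 and 2 of the testis genes. Of the nervous system genes it called 2, 1 and 3 higher, and 3 lower in leg discs. In antennal discs with ectopic ey, 8 of 9 measured muscle genes were called higher by limma, and their summed linear signal was 27226 to 27752 against 1754 to 1769 in wild-type discs, where Act88F, fln, TpnC4 and Mlc2 were at the floor. In ato-mutant leg discs, 7 of 8 haemocyte genes were called higher against both other leg groups, with summed signals of 6947 to 25450, 3404 to 4244 in wild-type and 4140 to 4458 in UAS-ey leg discs. Of 9 muscle genes, 4 were called higher there against each of the other leg groups, with summed signals of 3264 to 3481, against 1854 to 1996 in wild-type and 1525 to 1578 in UAS-ey leg discs. The summed signal of 5 fat body genes was 35840 to 52116 there, 5237 to 9757 in wild-type and 5470 to 13471 in UAS-ey leg discs. Of 9 salivary gland genes, 5 were called lower in UAS-ey than in wild-type leg discs, with summed signals of 2585 to 3509 against 10731 to 17194, and 4 lower in UAS-ey than in wild-type wing discs, with 2778 to 4190 against 8157 to 26606. In ato-mutant leg discs 6 of them were called higher than in UAS-ey leg discs, with summed signals of 6937 to 24709, and 2 higher and 1 lower than in wild-type leg discs. Over all probe sets, 12.3% were called higher and 8.87% lower in ato-mutant than in wild-type leg discs. Against UAS-ey leg discs 14.5% were called higher. With ectopic ey, 9.02% were called higher and 10.3% lower in leg discs, 2.94% and 2.38% in wing discs, and 7.04% and 4.46% in antennal discs. No haemocyte or fat body gene of the lists was at the floor in any leg group, and none of these marker genes was among the 36. The part of these cells in the rises was not tested.

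The difference between the mean with ectopic ey and the wild-type mean is called the rise. The rises ran from 0.51 in CG30159 in wing discs to 3.61 in CG4210 in antennal discs. Their medians over the 36 genes were 1.17 in leg, 0.78 in wing and 1.11 in antennal discs, against a median of 0.00 over all genes in each disc. Since these rises chose the genes, they are given as a description and without a test. A rise of at least 0.5 was seen in 2.73% of the CG-numbered genes in leg discs, 1.54% in wing discs and 2.86% in antennal discs. The rise was smallest in wing discs for 25 of the 36 genes, in leg discs for 6 and in antennal discs for 5. It was largest in antennal discs for 18, in leg discs for 14 and in wing discs for 4. All 3 rises exceeded 1, a doubling of the signal, in 7 genes. All 3 arrays with ectopic ey lay above all 3 wild-type arrays in 35 of the 36 genes in leg discs, 32 in wing discs and 36 in antennal discs, shares that the choice of the genes largely sets. Over all probe sets this held for 13.9% in leg, 7.22% in wing and 17% in antennal discs. The exceptions were CG7203 in leg discs and CG33978, CG4998, CG16700 and CG8547 in wing discs.

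Technical controls also differed between discs with ectopic ey and wild-type discs, but not all in the same direction. The difference between the 3' and 5' GAPDH control probe sets, which grows as RNA is shorter or less completely copied, was 2.01 to 2.27 in UAS-ey and 1.79 to 1.93 in wild-type leg discs. It was 2.50 to 2.65 against 1.99 to 2.44 in wing discs and 2.19 to 2.40 against 2.0 to 2.16 in antennal discs. The same difference for the eIF4a control overlapped in each disc, at 2.09 to 2.26 against 2.09 to 2.34 in leg discs. It was 2.41 to 2.58 against 2.30 to 2.50 in wing and 2.37 to 2.42 against 2.22 to 2.41 in antennal discs. The phe control, a bacterial transcript used to check the assay, read 8.37 to 8.65 in UAS-ey and 10.37 to 10.89 in wild-type leg discs. It read 10.66 to 11.11 against 9.77 to 10.65 in wing discs and 8.31 to 8.72 against 8.69 to 9.50 in antennal discs. The phe control was thus lower with ectopic ey in leg discs, higher in wing discs and overlapping in antennal discs. The part of these values in the rises was not tested.

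**Figure D1:**
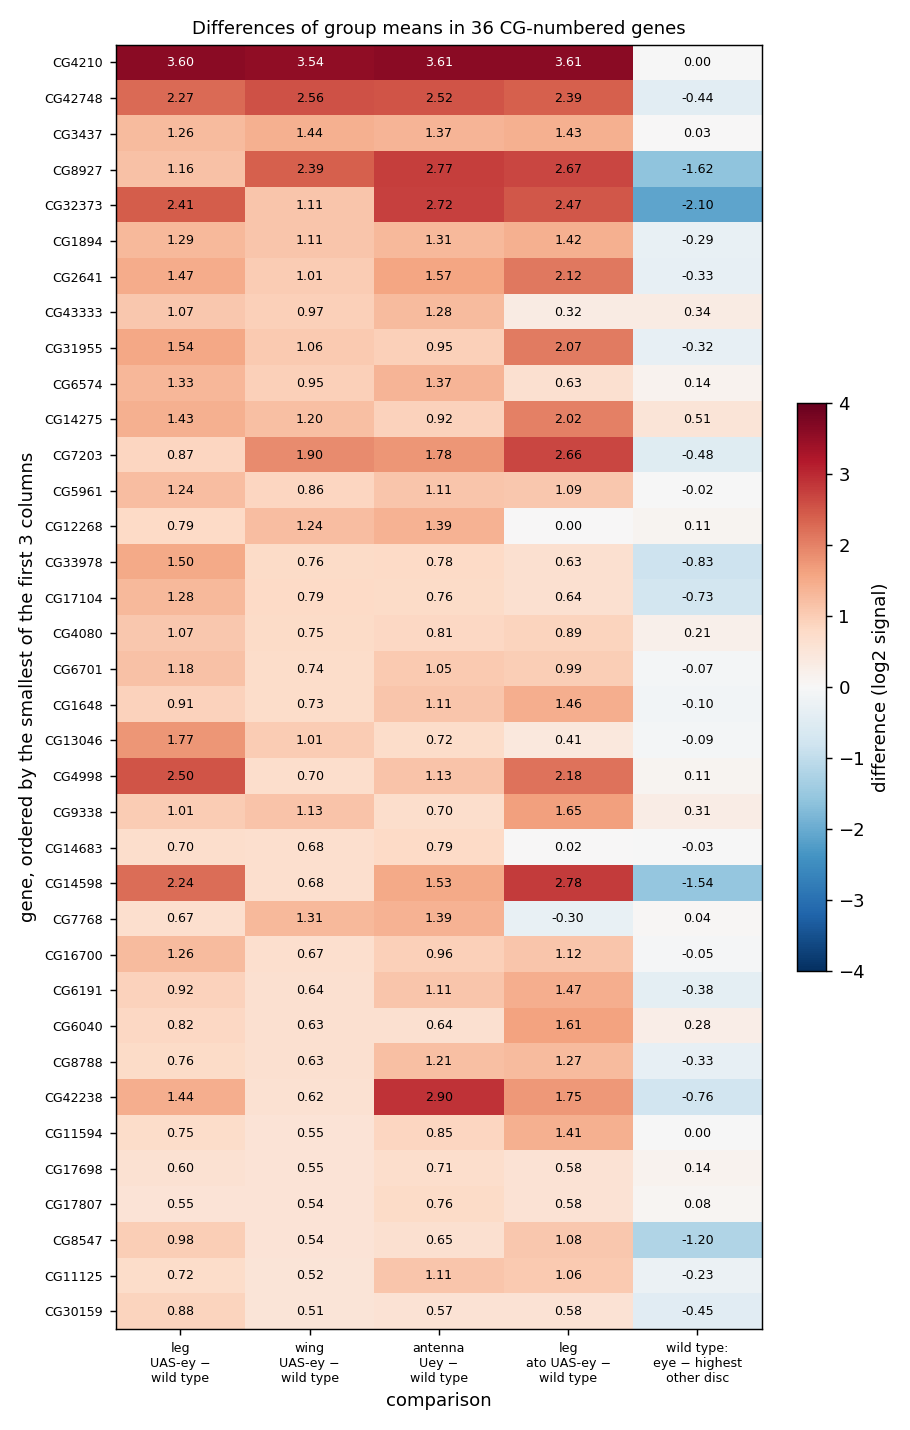
Differences of group means (log2 signal, colour scale from blue for lower to red for higher, value printed in each cell) for the 36 genes, ordered by the smallest of the rises in leg, wing and antennal discs. The fourth column gives ato-mutant UAS-ey leg discs minus wild-type leg discs and the fifth the wild-type eye mean minus the highest other wild-type disc mean. All values in the first 3 columns are at least 0.5 by choice, the fourth runs from -0.30 to 3.61 and the fifth from -2.10 to 0.51.

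CG4210 had the largest rises of the set. It read 10.50, 10.47 and 10.57 on the UAS-ey leg arrays, 10.55, 10.46 and 10.35 on the UAS-ey wing arrays and 10.43, 10.62 and 10.53 on the Uey antennal arrays. All 13 wild-type arrays, eye discs included, were at the floor of 6.91. The groups thus stood fully apart, and against the floor the signal was at least 12.1-fold higher in leg, 11.6-fold in wing and 12.2-fold in antennal discs. CG4210 also had the most even rises, which differed by 0.07 between the discs. Ectopic ey and another difference between the stocks cannot be told apart here.

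CG42748 showed a similar evenness at a high signal. Its leg arrays read 12.65, 12.69 and 12.80 with UAS-ey and 10.43, 10.43 and 10.47 in the wild type. Its wing arrays read 12.99, 12.97 and 12.98 with UAS-ey and 10.28, 10.55 and 10.45 in the wild type. Its antennal arrays read 13.02, 12.91 and 12.94 with Uey and 10.42, 10.45 and 10.44 in the wild type. All groups with ectopic ey stood apart from the wild type, and the wild-type eye arrays, at 10.01, 9.97, 10.08 and 9.97, were the lowest of all. Its rises were 2.27 in leg, 2.56 in wing and 2.52 in antennal discs, several times the spread within any group.

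CG3437 had rises of 1.26 in leg, 1.44 in wing and 1.37 in antennal discs. Its UAS-ey arrays read 9.53, 9.46 and 9.44 in leg and 9.35, 9.51 and 9.42 in wing discs, and its Uey antennal arrays 9.57, 9.64 and 9.66. The wild-type arrays read 8.46, 8.21 and 7.97 in leg, 7.97, 7.99 and 8.01 in wing and 8.12, 8.33 and 8.32 in antennal discs. With ectopic ey the 3 discs thus reached nearly the same signal, and no wild-type array came near it. CG1894, whose synonym HAT is used for histone acetyltransferases, had rises of 1.29 in leg, 1.11 in wing and 1.31 in antennal discs. Its wild-type arrays read 8.35, 8.0 and 8.59 in leg, 8.28, 7.64 and 7.80 in wing and 8.75, 8.74 and 8.73 in antennal discs. With ectopic ey they read 9.47, 9.52 and 9.80 in leg, 9.60, 8.64 and 8.81 in wing and 10.07, 9.98 and 10.09 in antennal discs. The wing arrays were the most scattered in both conditions, and the antennal ones the tightest.

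In CG8927 and CG32373 the smallest rise was in the disc with the highest wild-type signal, which is subtracted in the rise and so lowers it. CG8927 read 6.91 to 7.02 in wild-type wing discs and was at the floor in wild-type antennal discs, but read 8.49, 8.58 and 8.52 in wild-type leg discs. With ectopic ey it read 9.83, 9.63 and 9.61 in leg, 10.35, 8.38 and 9.28 in wing and 9.69, 9.63 and 9.72 in antennal discs. The leg and antennal groups reached almost the same signal, while the wing arrays were scattered. CG32373 was at the floor on the wild-type leg arrays and read 7.11, 7.06 and 7.01 in antennal but 9.26, 9.11 and 9.02 in wing discs. With ectopic ey it read 9.31, 9.24 and 9.43 in leg, 10.37, 10.16 and 10.19 in wing and 9.75, 9.77 and 9.82 in antennal discs. Its rises were 2.41 in leg, 1.11 in wing and 2.72 in antennal discs, and in wing discs the wild-type arrays already read close to the UAS-ey leg arrays.

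**Figure D2:**
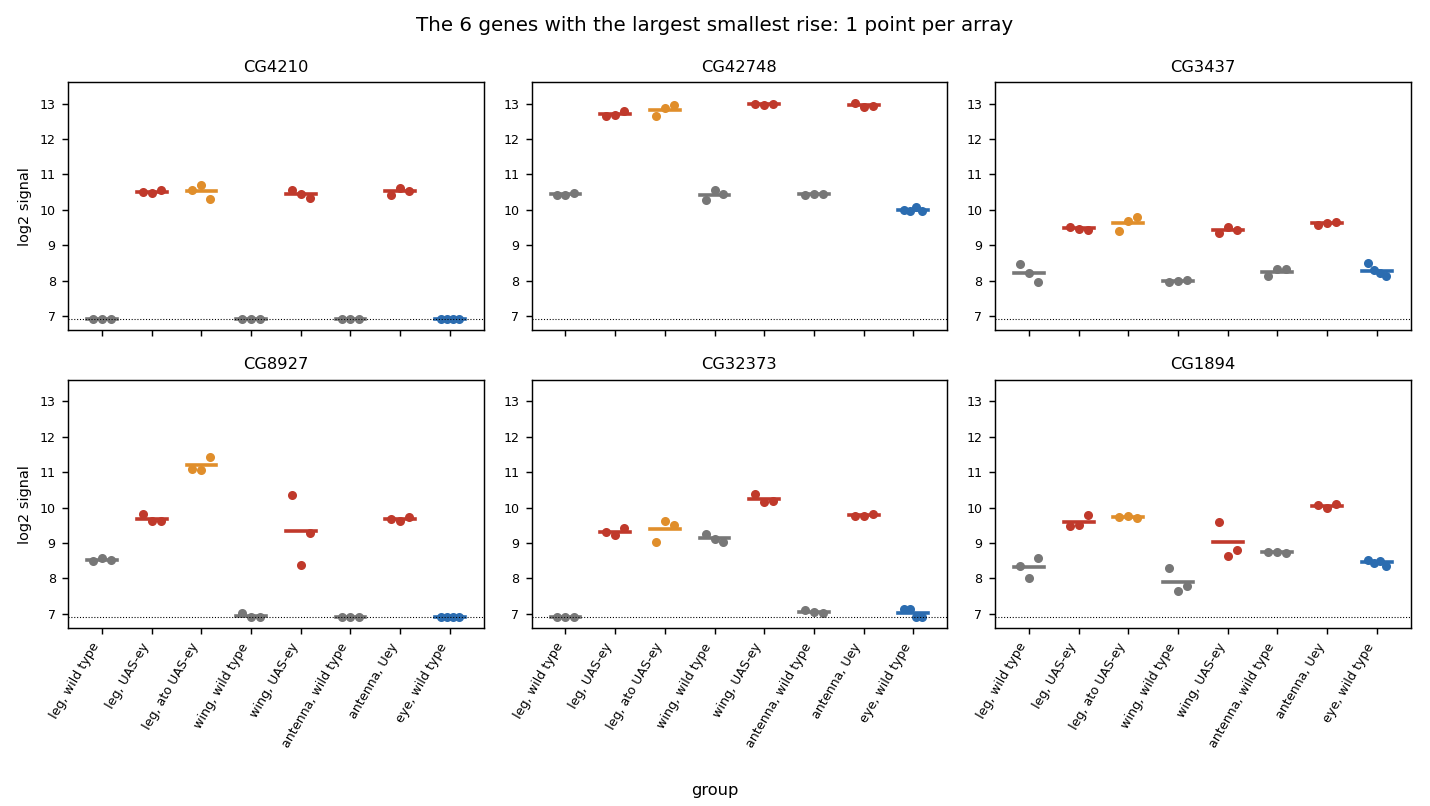
Log2 signal on every array (points, 1 per array; horizontal bars are group means; the dotted line is the floor at 6.91) in the 8 groups, given on the horizontal axis, for the 6 genes whose smallest rise was largest. CG4210 was at the floor on all wild-type arrays and near 10.5 with ectopic ey, while CG8927 in leg discs and CG32373 in wing discs had wild-type signals well above the floor.

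CG2641 and CG31955 were close to the floor in every wild-type disc. CG2641 read 7.18, 6.93 and 6.91 in wild-type leg, 7.05, 7.55 and 7.23 in wing and 6.94, 7.0 and 6.91 in antennal discs. With ectopic ey it read 8.46, 8.34 and 8.64 in leg, 8.63, 8.12 and 8.10 in wing and 8.42, 8.50 and 8.64 in antennal discs. CG31955 read 7.24, 7.28 and 7.04 in wild-type leg, 7.17, 6.91 and 6.97 in wing and 7.36, 7.20 and 7.13 in antennal discs. Its arrays with ectopic ey read 8.63, 8.74 and 8.83 in leg, 7.97, 8.17 and 8.07 in wing and 8.16, 8.10 and 8.27 in antennal discs. In both genes every array with ectopic ey lay above every wild-type array of any disc. CG6574 did so too, with 8.22, 8.27 and 8.31 in leg, 7.88, 7.99 and 7.78 in wing and 8.42, 8.36 and 8.38 in antennal discs against 6.91 to 7.27 over all wild-type arrays. Since part of these wild-type values sit at the floor, the rises of the 3 genes may understate the change.

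CG43333, CG14275 and CG7203 had higher and more varied wild-type signals. CG43333 read 9.32, 9.15 and 9.25 in wild-type leg, 7.86, 7.99 and 8.15 in wing and 8.38, 8.18 and 8.01 in antennal discs. The arrays with ectopic ey read 10.30, 10.23 and 10.41 in leg, 9.61, 8.64 and 8.67 in wing and 9.42, 9.49 and 9.50 in antennal discs. CG14275 read 8.78, 8.88 and 8.63 in wild-type leg, 8.55, 7.82 and 7.73 in wing and 9.62, 9.60 and 9.64 in antennal discs. With ectopic ey the values were 9.99, 10.31 and 10.29 in leg, 9.79, 8.89 and 9.02 in wing and 10.54, 10.54 and 10.56 in antennal discs. The second and the third wing arrays with ectopic ey stayed below the wild-type leg arrays for CG43333 and below the wild-type antennal arrays for CG14275. CG7203 read 7.86, 8.64 and 7.78 in wild-type leg and 8.73, 8.33 and 9.83 in UAS-ey leg discs, which overlapped because the second UAS-ey array lay below the second wild-type array. Its wing arrays went from 7.99, 8.33 and 8.25 to 10.56, 9.43 and 10.27 and its antennal arrays from 7.90, 7.75 and 7.85 to 9.60, 9.61 and 9.62, with no overlap.

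The evenness of the rises varied over the set. The largest and the smallest rise of a gene differed by less than 0.5 in 19 of the 36 genes and by at least 1 in 7. The 5 most even genes were CG4210, CG14683, CG17698, CG3437 and CG6040, with ranges of 0.07 to 0.19. CG14683, with the synonym METTL15 of the methyltransferase-like family, had rises of 0.70 in leg, 0.68 in wing and 0.79 in antennal discs. CG17698, with the synonym CAMKIIb that points to a calcium- and calmodulin-dependent kinase, had rises of 0.60 in leg, 0.55 in wing and 0.71 in antennal discs. The 5 most uneven were CG42238, CG4998, CG32373, CG8927 and CG14598, with ranges of 1.56 to 2.28. CG42238 had rises of 1.44 in leg, 0.62 in wing and 2.90 in antennal discs, so that its signal more than doubled in leg and antennal discs but not in wing discs. CG4998, whose synonym SPH66 stands for a serine protease homolog, had rises of 2.50 in leg, 0.70 in wing and 1.13 in antennal discs, and CG14598 of 2.24 in leg, 0.68 in wing and 1.53 in antennal discs. Whether the rises of a gene differed between the discs was not tested, because they chose the gene.

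Most of the smaller rises were in wing discs, where the arrays also spread most. The median over genes of the standard deviation of the UAS-ey wing arrays was 0.26, against 0.10 in UAS-ey leg and 0.04 in Uey antennal discs. The first UAS-ey wing array gave the highest of the 3 values in 27 of the 36 genes. A lean to 1 array was also seen in UAS-ey leg discs, where the third array was highest in 28 genes, in ato-mutant leg discs, where the third was highest in 27, and in Uey antennal discs, where the third was highest in 20. Without the first UAS-ey wing array 28 CG-numbered genes met the limits, 27 of them among the 36. Without the third UAS-ey wing array 42 did. The 12 genes that fell out of the set when 1 array or another was left out were CG7203, CG33978, CG1648, CG4998, CG7768, CG16700, CG6191, CG11594, CG17698, CG8547, CG11125 and CG30159. The other 24 stayed in the set each time.

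The remaining members had their smallest rise between 0.51 and 0.86. Of the leg, wing and antennal discs in that order, the rises were 1.24, 0.86 and 1.11 in CG5961, whose synonym FBXO9 stands for an F-box protein. They were 0.79, 1.24 and 1.39 in CG12268, 1.50, 0.76 and 0.78 in CG33978, and 1.28, 0.79 and 0.76 in CG17104. CG4080 had rises of 1.07, 0.75 and 0.81, CG6701 of 1.18, 0.74 and 1.05, and CG1648 of 0.91, 0.73 and 1.11. The wing rise was the smallest in 5 of these genes, the leg rise in CG12268 and the antennal rise in CG17104. CG13046 had rises of 1.77, 1.01 and 0.72 and CG9338 of 1.01, 1.13 and 0.70, with the antennal rise the smallest in both. CG7768 had rises of 0.67, 1.31 and 1.39, with the leg rise the smallest. CG16700, CG6191, CG6040, CG8788, CG11594, CG17807, CG8547, CG11125 and CG30159 had rises of 0.55 to 1.26 in leg, 0.51 to 0.67 in wing and 0.57 to 1.21 in antennal discs. CG11594, like CG4210, was at the floor on all wild-type arrays, and its signal was at least 1.68-fold higher in leg, 1.46-fold in wing and 1.81-fold in antennal discs. At the bright end of the set, CG8547 read 10.17 to 12.61, CG42748 9.97 to 13.02 and CG30159 10.92 to 12.22 over all arrays, and at the dim end CG11594 read 6.91 to 8.44, CG6574 6.91 to 8.42 and CG7768 6.91 to 8.90.

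Some genes lay close to the limits of the choice. The wing rise was 0.51 in CG30159, 0.52 in CG11125 and 0.54 in CG8547, just inside, and 0.49 in CG42254, 0.48 in CG12391 and 0.47 in CG13631, just outside. For the leg rise, CG17807 at 0.55, CG17698 at 0.60 and CG7768 at 0.67 were just inside, and CG1344 at 0.47, CG5455 at 0.46 and CG1116 at 0.44 just outside. For the antennal rise, CG30159 at 0.57, CG6040 at 0.64 and CG8547 at 0.65 were just inside, and CG11600 at 0.46, CG9932 at 0.45 and CG3857 at 0.39 just outside. At the eye limit, CG14275 at 0.51, CG43333 at 0.34 and CG9338 at 0.31 were the nearest inside, and CG15211 at 0.70, CG14715 at 1.08 and CG46385 at 1.20 the nearest outside.

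A disc can also be read with genes chosen on the other discs. Of the 51 CG-numbered genes that met the limits in wing and antennal discs and at the eye, 36 also had a rise of at least 0.5 in leg discs and 38 were called higher there by limma at an adjusted p of 0.05. Of the 63 chosen on leg and antennal discs, 36 passed in wing discs and 35 were called higher. Of the 40 chosen on leg and wing discs, 36 passed in antennal discs and 36 were called higher. Over all probe sets, 9.02% were called higher and 10.3% lower in leg discs, 2.94% and 2.38% in wing discs, and 7.04% and 4.46% in antennal discs. The medians in the disc left out were 0.88 in leg, 0.55 in wing and 1.08 in antennal discs, and the lowest values -0.32 for CG15756 in leg, 0.00 for CG12911 in wing and 0.38 for CG6310 in antennal discs. The wild-type arrays of the disc left out still entered the eye limit, and this way of counting was chosen after the values were seen. The 36 that passed were the members themselves each time, so these counts overlap. They give no separate test of the rises that chose the members.

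The wild-type eye disc was not enriched for these transcripts, as the choice required. The eye mean lay below the highest of the other wild-type means in 24 of the 36 genes, with a median difference of -0.08, the same as over all genes. It was far below in CG32373 (-2.10, against wing), CG8927 (-1.62, against leg), CG14598 (-1.54, against wing) and CG8547 (-1.20, against antenna). In 10 genes the eye mean was below all 3 other wild-type discs. CG8547 read 10.92, 10.68, 10.27 and 10.17 on the eye arrays, and 11.72, 11.73 and 11.67 on the wild-type antennal arrays. The signal with ectopic ey was above that of the wild-type eye disc in 36 of the 36 genes in leg, 31 in wing and 35 in antennal discs, with median differences of 1.01, 0.74 and 1.22. These counts rest on the means that chose the genes and are largely set by the choice. In 31 genes all 3 groups with ectopic ey were above the wild-type eye disc.

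The same limits were met by 80 of 6772 genes with other symbols, which is 1.18%, against 0.691% of the CG-numbered genes. Of the CG-numbered genes raised in all 3 discs, 36 of 42 lacked the eye enrichment, and of the genes with other symbols 80 of 113. These shares come from the values that chose the genes and were not tested.

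The UAS-ey leg discs labelled ato mutant were compared with wild-type and with UAS-ey leg discs. Their arrays were not used to choose the genes, but the wild-type leg arrays that they are compared with were, so the comparisons of both leg groups with wild type share them. The choice favoured genes that read low on those wild-type arrays, which tends to move the difference from wild type upward. Against wild-type leg discs, 30 of the 36 genes were called higher by limma and none lower, where 12.3% of all probe sets were called higher and 8.87% lower. The shares over all probe sets include those at the floor, and no member was at the floor with ectopic ey. At an unadjusted p of 0.05 the counts were 31 higher and 1 lower, the latter being CG7768. The median difference was 1.34 over the 36 genes and 0.00 over all probe sets. In CG4210 the difference was 3.61 (SE 0.07, adjusted p = 5e-17), in CG14598 2.78 (SE 0.17, adjusted p = 1e-09), in CG8927 2.67 (SE 0.28, adjusted p = 1.8e-06), in CG7203 2.66 (SE 0.34, adjusted p = 1.8e-05) and in CG32373 2.47 (SE 0.11, adjusted p = 3.1e-11). The ato-mutant arrays read 10.55, 10.71 and 10.32 for CG4210 and 12.66, 12.87 and 12.95 for CG42748, in both cases around the UAS-ey leg arrays. Groups at the floor add no spread to the pooled estimate behind the SE, which can therefore be too small for CG4210, CG8927, CG32373, CG31955, CG4998 and CG11594. The ato-mutant arrays also spread more than most groups pooled with them. Over the 36 genes their median SD was 0.20, against 0.13 in wild-type leg, 0.10 in UAS-ey leg and 0.04 in Uey antennal discs. The UAS-ey wing arrays spread more still, at 0.26. The SE of a single gene can thus be too small or too large. With only the arrays compared in the fit, 26 of the 36 were called higher. CG17698 was called although its arrays overlapped those of wild type.

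**Figure D3:**
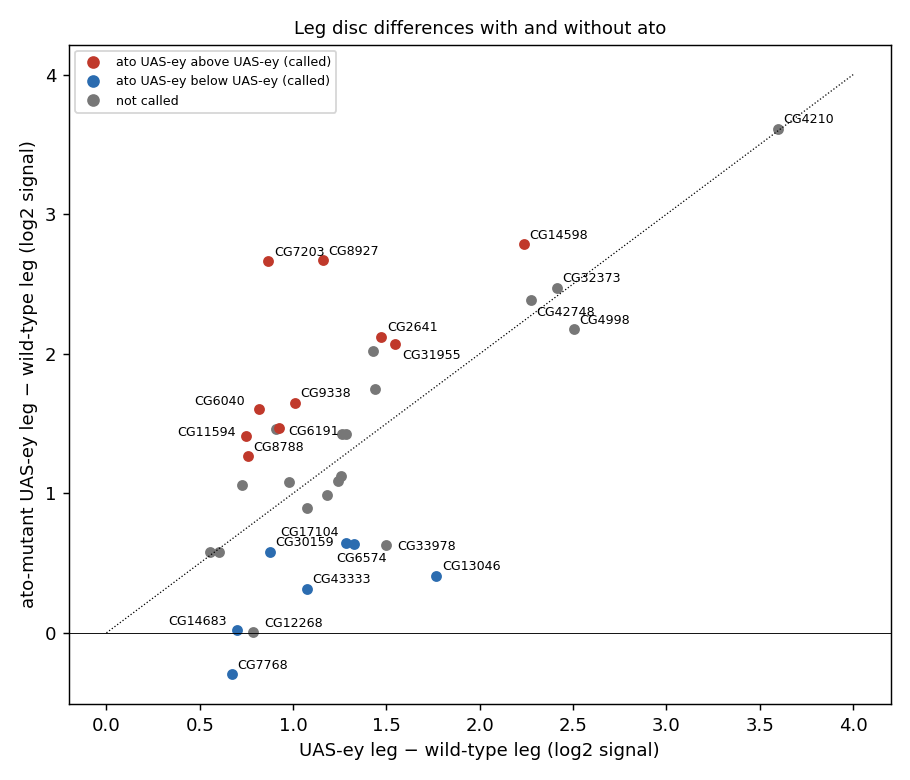
Difference from wild-type leg discs (log2 signal) in UAS-ey leg discs (horizontal axis) and in ato-mutant UAS-ey leg discs (vertical axis), 1 point per gene for the 36 genes; both use the same 3 wild-type leg arrays. The dotted line marks equal differences; red genes (10) were called higher and blue genes (7) lower in ato-mutant than in UAS-ey leg discs, and CG14683, CG12268 and CG7768 lie at 0.02, 0.00 and -0.30 on the vertical axis.

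The 6 genes not called against wild-type leg discs were CG43333, CG12268, CG33978, CG13046, CG14683 and CG7768. CG14683 differed little from wild type, with a narrow error. Its 3 ato-mutant arrays read 11.06, 11.09 and 11.05, the wild-type leg arrays 10.98, 11.07 and 11.10 and the UAS-ey leg arrays 11.69, 11.77 and 11.79. The difference from wild type was 0.02 (SE 0.05, adjusted p = 1). CG14683 was also nearly the same in all wild-type discs, at 10.96 to 11.20 over the 13 arrays, and in all 3 discs with ectopic ey, at 11.66 to 11.85. The ato-mutant arrays thus fell within the range of the wild-type ones. CG7768 read 7.02, 6.95 and 7.17, against 7.70, 7.41 and 6.91 in wild-type and 7.91, 8.02 and 8.12 in UAS-ey leg discs, a difference from wild type of -0.30 (SE 0.14, adjusted p = 0.148). CG12268 read 9.06, 10.14 and 10.56, spread over more than the gap between wild-type and UAS-ey leg discs, and its difference was 0.00 (SE 0.32, adjusted p = 1). For CG13046 it was 0.41 (SE 0.16, adjusted p = 0.0867), for CG43333 0.32 (SE 0.24, adjusted p = 0.434) and for CG33978 0.63 (SE 0.42, adjusted p = 0.348). A difference that misses the threshold does not show that a gene was at the wild-type level.

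Against UAS-ey leg discs, 10 of the 36 genes were called higher in the ato-mutant discs and 7 lower, a difference that compares 2 groups with ectopic ey. Over all probe sets 14.5% were called higher and 9.03% lower, against 27.8% and 19.4% of the 36 genes, whose median difference was 0.08. Here too the shares over all probe sets include those at the floor, which limits the comparison with the 36. The UAS-ey leg arrays had also been used to choose the genes. That choice favoured genes that read high on them, which tends to move the difference from UAS-ey leg discs downward. The 6 largest differences upward were in CG7203, CG8927, CG6040, CG11594, CG2641 and CG9338. CG7203 read 10.62, 10.30 and 11.36 and differed by 1.80 (SE 0.34, adjusted p = 0.00087). CG8927 read 11.10, 11.07 and 11.43 and differed by 1.51 (SE 0.28, adjusted p = 0.00068). CG8927 stood above all arrays of every other group and CG7203 above all other leg arrays. CG6040 read 11.82, 11.80 and 11.97 against 11.03, 11.04 and 11.15 in UAS-ey leg discs, a difference of 0.79 (SE 0.11, adjusted p = 5.3e-05). CG11594 read 8.29, 8.44 and 8.24 against 7.57, 7.73 and 7.68, a difference of 0.66 (SE 0.05, adjusted p = 2.4e-08). The groups did not overlap in either gene. CG2641 read 9.08, 9.15 and 9.15 and differed by 0.65 (SE 0.13, adjusted p = 0.00131), and CG9338 read 11.90, 11.85 and 12.07 and differed by 0.64 (SE 0.18, adjusted p = 0.0129). CG14598, CG6191, CG31955 and CG8788 were higher by 0.51 to 0.55.

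The 6 largest differences downward were in CG13046, CG7768, CG43333, CG6574, CG14683 and CG17104. CG13046 read 8.14, 8.37 and 8.94, against 9.78, 9.86 and 9.88 in UAS-ey leg discs, and differed by -1.36 (SE 0.16, adjusted p = 1.1e-05). CG7768 differed by -0.97 (SE 0.14, adjusted p = 5.6e-05) and CG14683 by -0.68 (SE 0.05, adjusted p = 4.7e-08). In all 3 the ato-mutant arrays lay below all UAS-ey leg arrays. CG43333 read 9.24, 9.24 and 10.20, with the third array close to the UAS-ey values, and differed by -0.76 (SE 0.24, adjusted p = 0.0276); leaving out any 1 of 5 of the 6 arrays ended that call. CG6574 read 7.28, 7.61 and 7.85 and differed by -0.69 (SE 0.10, adjusted p = 4.8e-05), and CG17104 read 7.89, 7.97 and 8.17, against 8.62, 8.61 and 8.70, and differed by -0.64 (SE 0.11, adjusted p = 0.0003). CG6574 and CG17104 nevertheless stayed above wild-type leg discs, by 0.63 (SE 0.10, adjusted p = 0.00011) and 0.64 (SE 0.11, adjusted p = 0.00028). The seventh gene, CG30159, was lower by 0.30 than in UAS-ey leg discs.

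**Figure D4:**
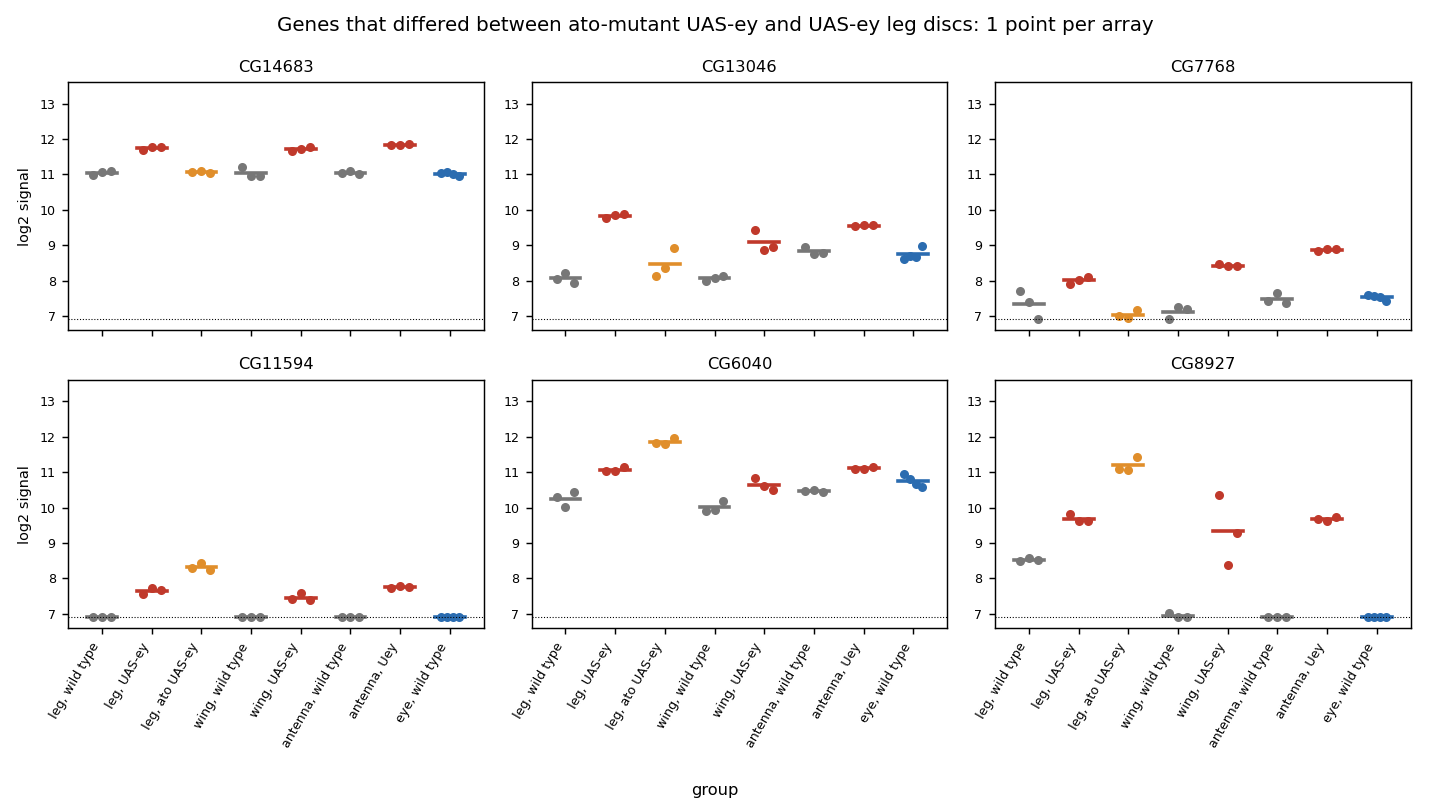
Log2 signal on every array (points; bars are group means; the dotted line is the floor at 6.91) by group, for 3 genes called lower (top) and 3 called higher (bottom) in ato-mutant UAS-ey than in UAS-ey leg discs. CG14683 in ato-mutant discs lay at 11.05 to 11.09, among its wild-type arrays, and CG6040 and CG11594 in ato-mutant discs lay above the arrays of all other groups.

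Several technical values moved with the ato-mutant group. The difference between the 3' and 5' GAPDH signals was 2.76 to 3.29 on the ato-mutant arrays, above both other leg groups. The phe control read 10.53 to 11.15, near wild-type and far above UAS-ey leg discs. With the GAPDH difference as a covariate, a setting added after the values were seen, 25 genes were called higher against wild type, and 4 higher and 1 lower against UAS-ey leg discs. With the phe control as a covariate 30 were called higher against wild type, and 2 higher and 1 lower against UAS-ey leg discs. CG6040 and CG11594 as higher and CG14683 as lower were called under both covariates. CG11594 was at the floor on all wild-type arrays, which could not vary with the covariates, so its call is less well checked. The part of the haemocyte, fat body, muscle and salivary gland signals given above in these differences was not tested.

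The same comparisons were made for genes outside the set. Of the 80 genes with other symbols that met the same limits, 70 were called higher in ato-mutant than in wild-type leg discs, 17 higher than in UAS-ey leg discs and 22 lower. Of the 6 CG-numbered genes raised in all 3 discs with an eye difference of at least 0.7, 3 were called higher than in wild-type leg discs, and 1 higher and 3 lower than in UAS-ey leg discs. Whether the 36 differ from either group was not tested.

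Some of the genes also differed between the wild-type discs. Of the 36, 6 were called between wing and leg discs, where 5.12% of all probe sets were, 7 between antennal and leg discs (5.89%) and 10 between antennal and wing discs (12.9%). The first 2 shares, and to a lesser degree the third, are above the background, but the numbers are small and the wild-type means also entered the choice. The background also includes probe sets at the floor, while no member was at the floor with ectopic ey. Of the 80 genes with other symbols that met the same limits, 2 were called higher and 7 lower in wing than in leg discs. In antennal discs 7 were higher and 2 lower than in leg discs, and 15 higher and 2 lower than in wing discs. Whether the 36 differ from these 80 was not tested. CG32373 was higher in wing than in leg discs by 2.22 (SE 0.11, adjusted p = 2.9e-10) and lower in antennal than in wing discs, at -2.07 (SE 0.11, adjusted p = 4.6e-10). CG42238 was likewise highest in wing discs, at 10.06, 10.04 and 9.82, against 8.29, 7.88 and 8.25 in leg and 8.62, 8.70 and 8.54 in antennal discs. It differed by 1.84 (SE 0.13, adjusted p = 2e-08) between wing and leg discs. CG14598 read 9.15, 9.30 and 9.25 in wing, 8.84, 8.24 and 8.33 in leg and 7.44, 7.41 and 7.16 in antennal discs, and differed by -1.89 (SE 0.17, adjusted p = 3.9e-07) between antennal and wing discs. These 3 genes had their smallest rise in the wing disc, where their wild-type signal was highest. The wild-type mean is subtracted in the rise, so a high one lowers it. The wing rise was also the smallest in 25 of the 36 genes. Among them were CG43333 and CG16700, whose wild-type signal was highest in leg and in antennal discs.

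CG8927 and CG9338 had another order. CG8927 was lower in wing than in leg discs, at -1.58 (SE 0.28, adjusted p = 0.0022), and lower in antennal than in leg discs, at -1.62 (SE 0.28, adjusted p = 0.00173). CG9338 read 9.23, 8.72 and 8.93 in wing, 10.37, 10.28 and 10.22 in leg and 10.78, 10.66 and 10.59 in antennal discs, with 1.72 (SE 0.18, adjusted p = 2.9e-06) between antennal and wing discs. The 3 groups of CG9338 did not overlap. In CG14275 the antennal discs exceeded the wing discs, at 1.59 (SE 0.25, adjusted p = 0.00044). The other called genes were CG43333, which was lower in wing and in antennal than in leg discs, CG13046 and CG16700, which were higher in antennal than in leg and in wing discs, and CG1894, CG6040 and CG17104, called between antennal and wing discs. The call of CG14275 between antennal and leg discs was lost whenever any 1 of the 6 arrays was left out.

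For 5 of the 36 genes the array carries another probe set, and in none of the 5 did it show the same rise. The 2 probe sets of CG42748 moved in opposite directions. The brighter one changed by 2.27, 2.56 and 2.52 in leg, wing and antennal discs, while the other changed by -0.77, -0.15 and -0.90. RefSeq lists 11 transcripts for this gene, and which of them each probe set reads is not given in the sources used here. CG33978 also differed in sign, with 1.50, 0.76 and 0.78 against -0.93, -0.79 and -1.25 in the other probe set, although the 2 have similar signals. For CG1894 the other probe set changed by 0.09, -0.03 and 0.08, for CG7768 by 0.11, 0.02 and 0.26, and for CG17698 by 0.06, 0.00 and 0.07. When a gene was represented by the mean of all its probe sets, 33 of the 36 stayed in the set, and CG33978, CG7768 and CG17698 left it.

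**Figure D5:**
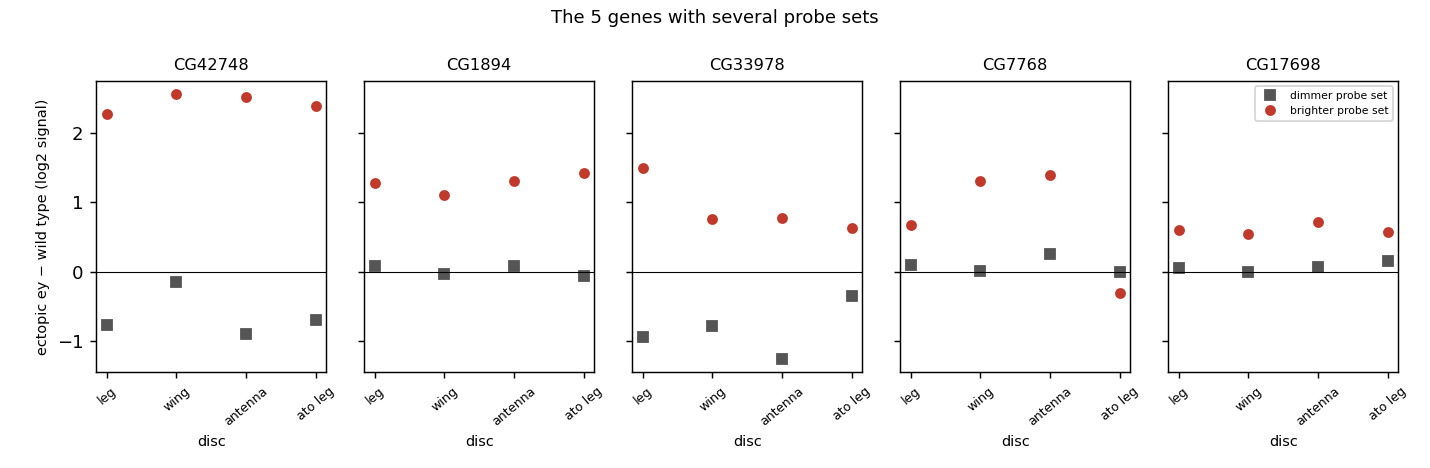
Difference between ectopic ey and wild type (log2 signal) for the 2 probe sets of each of the 5 genes that have several, in leg, wing and antennal discs and in ato-mutant leg discs (horizontal axis). Circles are the probe set with the higher mean over all arrays, squares the other one; the squares lie below 0 for CG42748 and CG33978 and between -0.05 and 0.26 for the other 3 genes.

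Neighbouring genes on the chromosomes, taken from the order of the RefSeq table, mostly did not share the rise. Of the 72 nearest measured neighbours, 2 (2.78%) had rises of at least 0.5 in all 3 discs, where 1.29% of all genes did, and none was among the 36. These were bero, next to CG9338, with rises of 0.82, 1.02 and 1.04 in leg, wing and antennal discs and 1.46 in ato-mutant leg discs, and Gr64a, a gustatory receptor gene next to CG11594, with 1.11, 0.59 and 1.08 and 1.46 in ato-mutant leg discs. bero was enriched in the wild-type eye disc by 2.08, while Gr64a, like CG11594, was at the floor there. In 12 of the 72 cases the gene models of neighbour and member overlap, and whether the probe sets read by strand is not given in the sources used here.

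The known pathway genes give the setting of these measurements. Of 10 measured retinal determination genes, limma called 7 higher in leg, 7 in wing and 4 in antennal discs with ectopic ey, and 1 lower in leg and 1 in antennal discs. Of 7 eye disc markers it called 6, 5 and 6 higher. Over all probe sets the shares called higher were 9.02%, 2.94% and 7.04% in leg, wing and antennal discs. eya, a transcription cofactor of that network, read 12.07 ± 0.03 in UAS-ey and 8.15 ± 0.15 in wild-type leg discs (SD, n = 3 each). Of 11 measured genes of disc stress, damage and developmental delay, 5 were called higher in leg, 5 in wing and 4 in antennal discs, and 1 lower in leg discs. In the ecdysone response list, which holds hormone-induced genes, 1 of 11 was called higher and 4 lower in leg discs, 1 higher in wing discs, and 2 higher and 4 lower in antennal discs. None of the 36 genes is on any of these lists, which were drawn up with earlier results of these data known.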

How the data were processed

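The values are the log2 signals that the authors deposited, 1 per probe set and array. Trizol RNA was amplified in a two-cycle procedure and labelled as cRNA, per the labels' protocols. How probe signals were summarised and arrays scaled is not given in the sources used here, and the deposited scaling was kept. The deposited table held 18952 probe sets, of which 183 controls were left out. Genes were named from the platform annotation, only for probe sets with 1 gene, and neighbours and synonyms came from the RefSeq table of assembly Release 6 plus ISO1 MT.

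Differences between groups were tested with limma (version 3.58.1, R 4.3.3), with a mean per group over all 25 arrays, eBayes, two-sided tests and Benjamini-Hochberg adjustment over 18769 probe sets, at an adjusted p of 0.05. Each printed adjusted p is from that fit. The procedure was checked on simulated data, with changes placed only in brighter probe sets. These data had no floor and the same spread in all groups, so effects of a floor or of unequal spreads were not checked. The genes and gene lists were chosen with earlier results of these data known. Named genes were the 20 with the largest smallest rise, the 5 most and 5 least even, up to 6 in each direction in the ato comparison, up to 5 between wild-type discs, 3 at each end of the signal, and 3 on each side of each limit. Same-numbered replicates did not vary together (84 pairs, of which 23 had a correlation over 0.1). Sequences, promoters and coordinates were not used here. The number of arrays limits the precision.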

Additional observations from a re-analysis of the deposited data

Results flagged for a closer look

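In 2 of the 32 genes whose wild-type eye arrays were not all at the floor, 1 of the 4 eye arrays was singled out from the other 3, by a small gap in log2 signal. CG2641 read 7.041 on its highest eye array while the other 3 were at the floor of 6.91. CG9338 read 10.78 on its lowest eye array, against 11.03 on the nearest and 11.07 on the highest. About 1 in 20 groups is singled out by chance at this limit, which is close to the 2 of 32 seen. For CG2641 the other 3 values were equal only because they sat at the floor, and that rate need not hold there. No explanation was tested. The other groups have 3 arrays and were not examined in this way.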

How the results depend on the processing

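The number of genes that met the limits was 56 with a rise limit of 0.4 and between 28 (without the first UAS-ey wing array) and 42 (without the third) when 1 array was left out. Under quantile normalization and median centring 34 of the 36 stayed in both sets, and CG11594 and CG30159 left at least 1 of them. Against wild-type leg discs, leaving out 1 array gave 29 to 31 genes higher and 0 to 1 lower. Against UAS-ey leg discs the 10 genes higher became 6 with only the arrays compared in the fit, 2 with the phe control as a covariate, 4 with the GAPDH difference as a covariate (added after the values were seen), and 8 to 13 when 1 array was left out. The 7 genes lower became 11 under quantile normalization, 1 with either covariate, and 5 to 8 when 1 array was left out. The 6 genes called between wild-type wing and leg discs became 3 with the GAPDH covariate and 5 to 8 when 1 array was left out. The 7 called between antennal and leg discs became 4 with only the arrays compared, 2 with the phe covariate and 3 to 7 when 1 array was left out, with the lowest count without the first antennal array. The 10 called between antennal and wing discs became 16 with arrays centred on their medians, 5 with the phe covariate and 7 to 11 when 1 array was left out. The causes were not tested. The replicate numbers do not pair the samples. With the replicate block the counts against wild-type and UAS-ey leg discs were again 30, 10 and 7. The 70 single calls were recomputed 1050 times in all; 933 times the call held, 117 times it was lost and in no case did the sign turn. Of the 70 calls, 33 held under every alternative run. The 115 calls of list genes became 109 with arrays centred on their medians and 110 with the replicate block.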
